A study of Anas platyrhynchos with 8 samples.

Results

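Amino acids cross cell membranes on carrier proteins of the solute carrier (SLC) families, and 30 gene symbols of 6 such families were followed in the abdominal fat of ducks with much or little abdominal fat. Members were all mRNA symbols that begin with SLC1A, SLC3A, SLC7A, SLC36A, SLC38A or SLC43A and a number, with letter case ignored. They made up 30 of 13213 symbols and 97 of 48592 transcript rows. One of them, SLC7A6OS, fits the spelling but is no transporter: its rows are described as a protein of RNA polymerase II nuclear localization. The libraries came from abdominal fat of ducks (Anas platyrhynchos) of an F2 population, all kept under the same conditions with free access to food and water, at day 42. A first group of 4 libraries came from ducks with a high abdominal fat ratio (HF), and the other 4 from ducks with a low ratio (LF). The labels give neither sex nor batch nor whether a library is 1 bird or a pool, so the tests measure only the spread between these samples. Where 4 values are given for a group, they follow the replicate numbers in the labels, 1 to 4.

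As background, known mostly from mammals, glutamate and aspartate enter cells on the acidic SLC1 carriers, which are driven by the sodium and potassium gradients. SLC38 carriers bring in glutamine, alanine and other small neutral amino acids together with sodium, and SLC7 carriers mostly exchange amino acids or, as the cationic carriers, move arginine and lysine. Many SLC7 exchangers need an SLC3 heavy chain to reach the membrane, while SLC36 carriers move small amino acids with protons and SLC43 carriers let large neutral amino acids pass down their gradient. Fat cells of mammals use amino acids both for protein and, after breakdown of branched-chain amino acids, as carbon for fatty acids.

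Depth ranged from 12696240 to 30836178 estimated counts per library. The 8 adipocyte markers (ADIPOQ, FABP4, PLIN1, LPL, CD36, PPARG, CIDEC and DGAT2) were all found, with summed levels of 19388 to 24904 CPM (counts scaled to library size) in HF and 19647 to 26204 CPM in LF. Rows described as W-linked held 1818 to 4226 counts in the HF libraries. In LF they held 2861 counts in LF-4 and 3 to 8 counts in the other 3 libraries. Fat group and W content therefore cannot be told apart fully, and HF can be set against LF with W-described transcripts only through LF-4. By symbol, the reference gene table places 3 members on the Z chromosome: SLC1A1, SLC1A3 and SLC38A9. The row with almost all counts of SLC1A3 is placed on chromosome 29 instead.

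None of the 21 members that passed the filter on low counts differed between HF and LF at an adjusted p under 0.05 (edgeR's quasi-likelihood test, Benjamini-Hochberg adjustment over all 10511 symbols tested). Over all symbols 68, or 0.647%, passed. At an unadjusted p under 0.05 stood 3 of the 21 members (14.3%) and 15.0% of all symbols. DESeq2, a second count test, called 1 of 25 members with an adjusted p, the glutamate carrier SLC1A2, and 5.51% of all symbols. The CPM of the groups did not overlap for 1 of 21 members (4.76%), again SLC1A2, and for 9.19% of all symbols. In these respects the members as a set had no larger share than all symbols. The log2 fold change (HF over LF) was positive for 11 members and negative for 10, with a median of 0.072, against 0.001 over all symbols tested. It ranged from -1.06 to 0.61.

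Levels between genes were compared in FPKM, which corrects for transcript length, summed over the rows of a symbol. SLC1A6, of the glutamate carriers, had the highest mean, at 81.7 ± 22.0 FPKM in HF and 73.4 ± 1.08 FPKM in LF (SD, n = 4 each here and below). SLC38A2, the sodium-coupled carrier of small neutral amino acids known as SNAT2, came next with 57.1 ± 8.67 FPKM in HF and 68.8 ± 17.9 FPKM in LF. As summed by symbol, these top levels did not separate: SLC1A6 was above SLC38A2 in 5 of 8 libraries. Some sums mix rows of different carriers. Nearly all of SLC1A3 came from a row that the reference gene table places in SLC1A6. SLC38A2 also holds rows described as SNAT7, and SLC38A3 mostly a row described as SNAT10. The order given here is therefore one of symbols, and the order with rows placed by description was not measured. SLC43A2, which carries large neutral amino acids and is also called LAT4, had 28.9 ± 5.0 FPKM in HF and 39.1 ± 12.7 FPKM in LF. SLC1A2, called EAAT2, a glutamate and aspartate carrier best known from astrocytes in mammals, had 19.3 ± 5.87 FPKM in HF and 37.4 ± 9.21 FPKM in LF. SLC38A2 was above SLC43A2 in 7 libraries, SLC43A2 above SLC1A2 in 4, and SLC1A2 above SLC38A6, the next in order, in 6. Thus SLC43A2 and SLC1A2 could not be ordered over all 8 libraries. SLC38A6, SLC1A3, SLC7A5, SLC7A6 and SLC38A1 followed with means over all libraries of 17.4, 16.1, 11.4, 9.02 and 8.90 FPKM. SLC38A1 was above the next symbol, SLC7A6OS at 5.58 FPKM, in all 8 libraries. SLC38A9, SLC38A3, SLC1A4 and SLC7A1 had 4.25 to 5.40 FPKM. SLC36A1, SLC7A2, SLC7A3, SLC36A4 and SLC3A1 had 1.03 to 2.17 FPKM, and the other 11 members were under 0.5 FPKM on average.

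**Figure D1:**
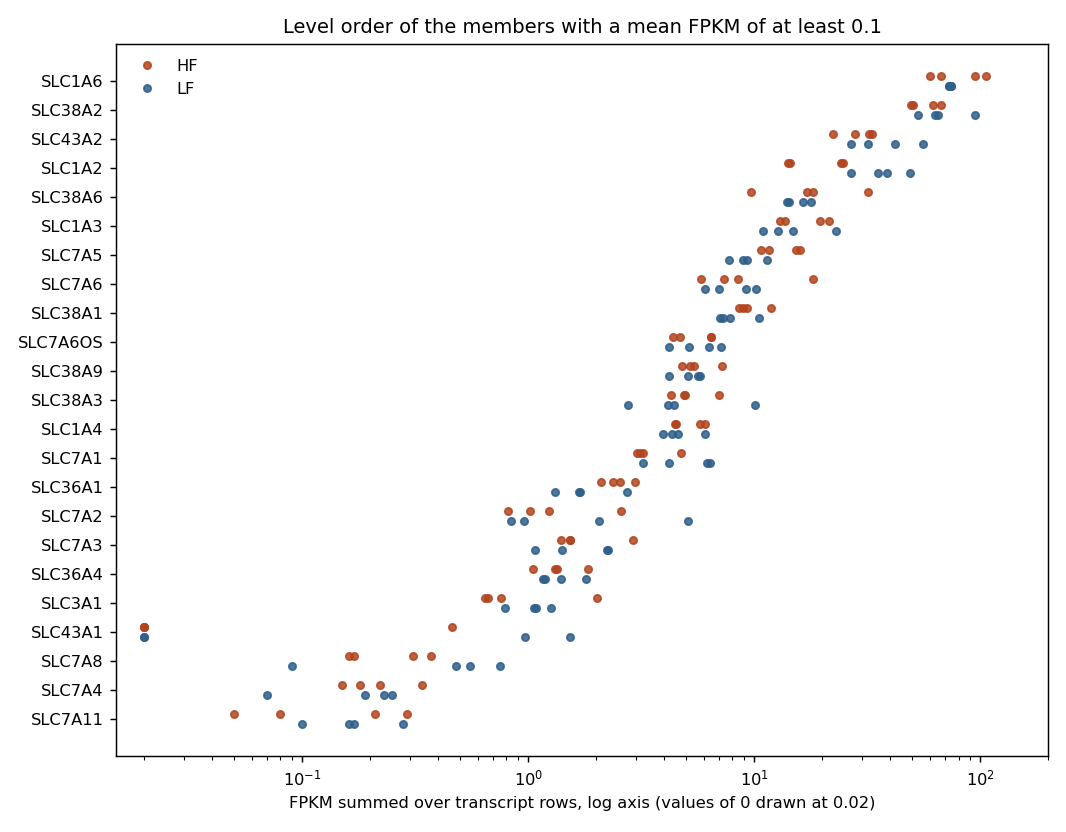
FPKM per library, summed over the transcript rows of a symbol, of the members with a mean of at least 0.1 FPKM, on a log axis and ordered by the mean over 8 libraries (HF red, LF blue; values of 0 drawn at 0.02). SLC1A6 and SLC38A2 stand at the top, and SLC1A2 is the member whose HF points all lie left of its LF points.

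Among the carriers of acidic amino acids, SLC1A2 was the only symbol whose CPM did not overlap between HF and LF, as held for 9.19% of all symbols. No acidic carrier passed edgeR's test. SLC1A2 stood at 122, 119, 197 and 177 CPM in HF and at 229, 302, 316 and 434 CPM in LF. All HF libraries lay below all LF libraries, with LF-4 the highest. The log2 fold change of SLC1A2 was -1.06 ± 0.23 (SE), 2.08-fold lower in HF, with an edgeR adjusted p of 0.0801, so it did not pass. DESeq2 gave -1.06 and an adjusted p of 0.00142. The 17 alternative settings refit the same data, and the one that regroups rows by description left the rows of SLC1A2 unchanged. The fold change kept its sign in all 17, DESeq2 included, and among them only DESeq2 called it. Leaving out 1 library moved it to at most -1.20 with HF-3 left out and -0.88 with LF-4 left out (edgeR adjusted p from 0.0745 to 0.196). LF-4, the LF library with W-described transcripts, was the farthest from HF, and the fit with that covariate gave -1.49 ± 0.29 (edgeR adjusted p = 0.0514). That fit called 0 of the 21 members and 1.22% of all symbols.

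The main transcript rows of SLC1A2 all had negative log2 fold changes, but the groups did not overlap only in the most abundant row. The most abundant row, described as isoform X1, had 69.8, 76.8, 142 and 78.2 CPM in HF and 159, 181, 203 and 276 CPM in LF, again without overlap. Its log2 fold change was -1.16 ± 0.27 (edgeR adjusted p over 23879 transcripts = 0.298). The share of all transcripts whose groups do not overlap was not measured. The second X1 row had -0.92 ± 0.38 and an assembled model -0.93 ± 0.48. In both the groups overlapped, with HF-4 at 72.2 and 27.7 CPM above LF-1 at 42.2 and 15.6 CPM. A sparse row described as X2 had 0.98 ± 1.29. None of the 4 passed edgeR's test, and DESeq2 called the most abundant row (adjusted p = 0.00682).

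**Figure D2:**
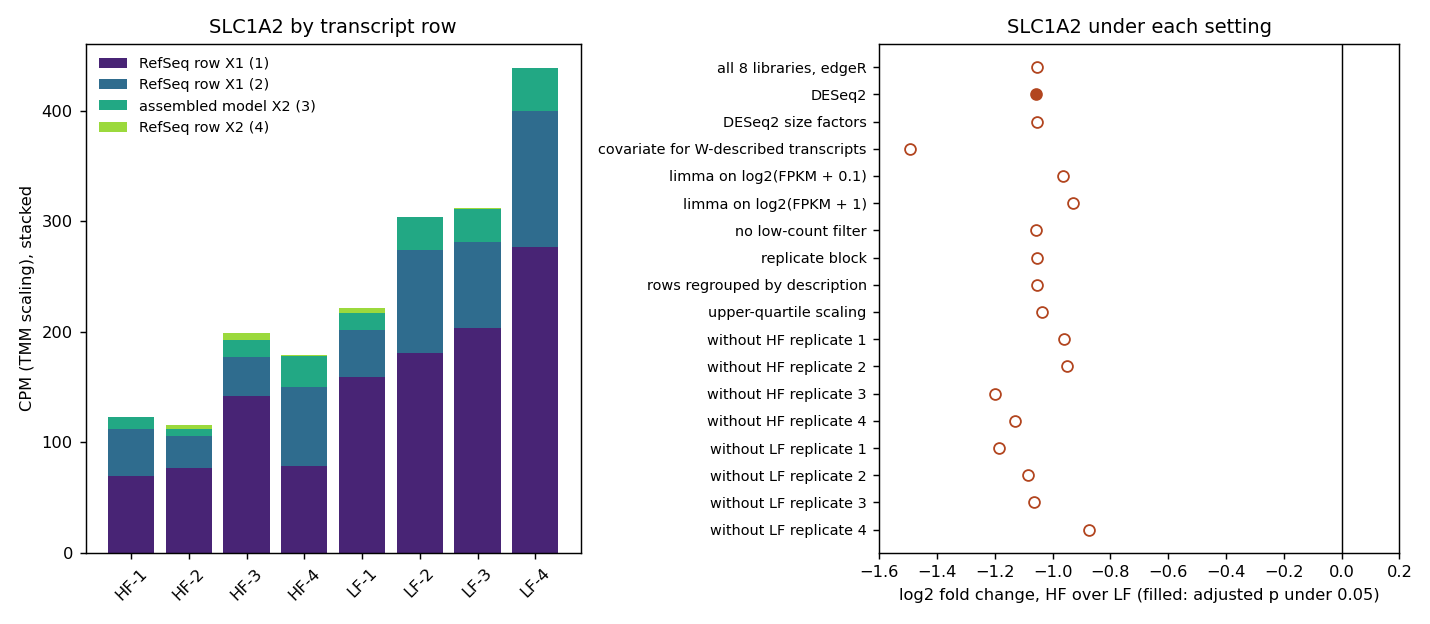
Left, CPM of SLC1A2 in each library, stacked by its 4 transcript rows; right, its log2 fold change (HF over LF) with all libraries and under each alternative setting, filled where the adjusted p was under 0.05. The 2 rows described as X1 make up most of the level in each library, and the fold change lies between -1.49 and -0.88 in every setting.

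SLC1A6, the member with the highest mean FPKM, had 346, 208, 194 and 295 CPM in HF and 224, 237.5, 223 and 241 CPM in LF. The HF libraries lay on both sides of the narrow LF range. SLC1A6 had a log2 fold change of 0.17 ± 0.18 (edgeR adjusted p = 0.714), 0.007 without HF-1 and 0.29 without HF-3. In mammals SLC1A6 encodes EAAT4 of cerebellar Purkinje cells, but of its 12 rows here 9 were described as EAAT1-like and 3 as EAAT4-like. The EAAT4-like rows held most of its counts in every library, and the EAAT1-like rows the rest, so the table does not settle the product. The most abundant row of SLC1A6, described as EAAT4-like, had 162, 118, 115 and 154 CPM in HF and 102, 105, 98.9 and 124 CPM in LF. Its log2 fold change was 0.35 ± 0.15 (edgeR adjusted p = 0.678). Almost all counts of SLC1A3, which in mammals encodes the glial carrier EAAT1, came from an EAAT1-like row that the reference gene table places in SLC1A6. SLC1A3 had 31.6, 18.4, 19.9 and 28.5 CPM in HF and 34.3, 16.5, 18.2 and 22.6 CPM in LF, with overlap. Its log2 fold change was 0.11 ± 0.26 (edgeR adjusted p = 0.887), -0.035 without HF-1 and 0.36 without LF-1. With that row moved to SLC1A6 the combined level was 285 ± 78.4 CPM in HF and 254 ± 9.73 CPM in LF, and the log2 fold change 0.17 ± 0.18. How reads were divided between these rows was not tested. SLC1A2 made up 10.1%, 15.1%, 24.7% and 17.7% of the summed FPKM of the acidic carriers in HF, and 21.5%, 29.2%, 31.2% and 35.9% in LF. Those shares overlapped, HF-3 being above LF-1. SLC1A1 and SLC1A7, the carriers EAAT3 and EAAT5, had at most 1 and 4 counts in any library and were not tested.

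Levels in bulk fat do not separate fewer cells of a type from less RNA per cell, and marker lists of several cell types leaned with the fat group. Endothelial markers had a summed level of 3269 to 6752 CPM in HF and 5754 to 7990 CPM in LF, with 6 of 7 tested members negative and a median log2 fold change of -0.52. Macrophage markers were at 1067 to 1491 CPM in HF and 642 to 1178 CPM in LF, with 8 of 8 positive and a median of 0.60. Lymphocyte markers were at 75.1 to 136 CPM in HF and 46.7 to 69.4 CPM in LF, with 5 of 5 positive. Stromal markers were at 5205 to 7541 CPM in HF and 2658 to 7649 CPM in LF, with 6 of 7 positive and a median of 0.14. The bottom of that LF range was LF-4, with the other LF libraries at 4874 to 7649 CPM, and LF-2 lay above all HF libraries. Skeletal muscle markers were at 10.2 to 75.5 CPM in HF and 5.51 to 188 CPM in LF, with 0 of 4 positive and a median of -1.44. The top of that LF range was LF-3 alone, with the other LF libraries at 5.51 to 20.7 CPM. Cell division markers were at 90.2 to 169 CPM in HF and 78.5 to 103 CPM in LF, with 7 of 8 positive and a median of 0.70. Here HF-3 alone stood at the top, with the other HF libraries at 90.2 to 104 CPM. Erythroid markers were at 189 to 665 CPM in HF and 234 to 538 CPM in LF, with 4 of 4 positive and a median of 0.32. No marker in these lists passed edgeR's test alone and none that was found stood at 0 in all libraries. Their part in the level of SLC1A2 was not tested.

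The carriers of small neutral amino acids held the next highest levels and none passed the test. SLC38A2 had 193, 261, 242 and 195 CPM in HF and 215, 395, 258 and 264 CPM in LF. The groups overlapped, and LF-2 was well above the rest. The log2 fold change of SLC38A2 was -0.35 ± 0.20 (edgeR adjusted p = 0.440), reaching -0.46 when LF-1 was left out and -0.14 when LF-2 was. Of its 5 rows, 2 were described as member 7 (SNAT7, a lysosomal carrier in mammals) and 1, at 0, as member 11. The rows described as SNAT2 alone had 201 ± 35.7 CPM in HF and 266 ± 76.1 CPM in LF, a log2 fold change of -0.41 ± 0.21. The SNAT7 rows had 21.5 ± 3.75 CPM in HF and 16.8 ± 1.75 CPM in LF, a log2 fold change of 0.36 ± 0.16 (edgeR adjusted p = 0.341). Thus the fold changes of the proteins summed under SLC38A2 differed in sign, and neither passed.

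SLC38A1, a glutamine carrier also called SNAT1, had 49.0, 45.2, 62.1 and 44.8 CPM in HF and 38.8, 56.6, 39.95 and 38.6 CPM in LF. Only LF-2 of the LF libraries reached the HF range. SLC38A1 had a log2 fold change of 0.21 ± 0.17 (edgeR adjusted p = 0.613), 0.093 without HF-3 and 0.36 without LF-2. SLC38A6, a member whose substrates are less well known, had 112, 199, 118 and 62.4 CPM in HF and 92.6, 119, 105 and 96.3 CPM in LF. HF held both the highest and the lowest library. Its log2 fold change was 0.25 ± 0.29 (edgeR adjusted p = 0.738), -0.080 without HF-2 and 0.47 without HF-4. SLC1A4, an exchanger of alanine, serine and cysteine called ASCT1, had 57.9 ± 10.01 CPM in HF and 54.2 ± 10.6 CPM in LF. SLC38A3, in mammals the system N glutamine carrier SNAT3, had 24.2 ± 5.58 CPM in HF and 25.2 ± 15.3 CPM in LF, with LF-1 at 47.5 CPM. Nearly all of its counts came from an assembled model described as SNAT10. With a row added that has this description and no symbol, SNAT10 had 75.6 ± 12.0 CPM in HF and 62.0 ± 18.1 CPM in LF (log2 fold change 0.29 ± 0.21, edgeR adjusted p = 0.566). SLC38A4 and SLC7A10, a further SNAT carrier and the exchanger of small neutral and D-amino acids Asc-1, had at most 18 and 12 counts in any library and were not tested. SLC7A10 is known as a marker of white fat cells in mice.

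**Figure D3:**
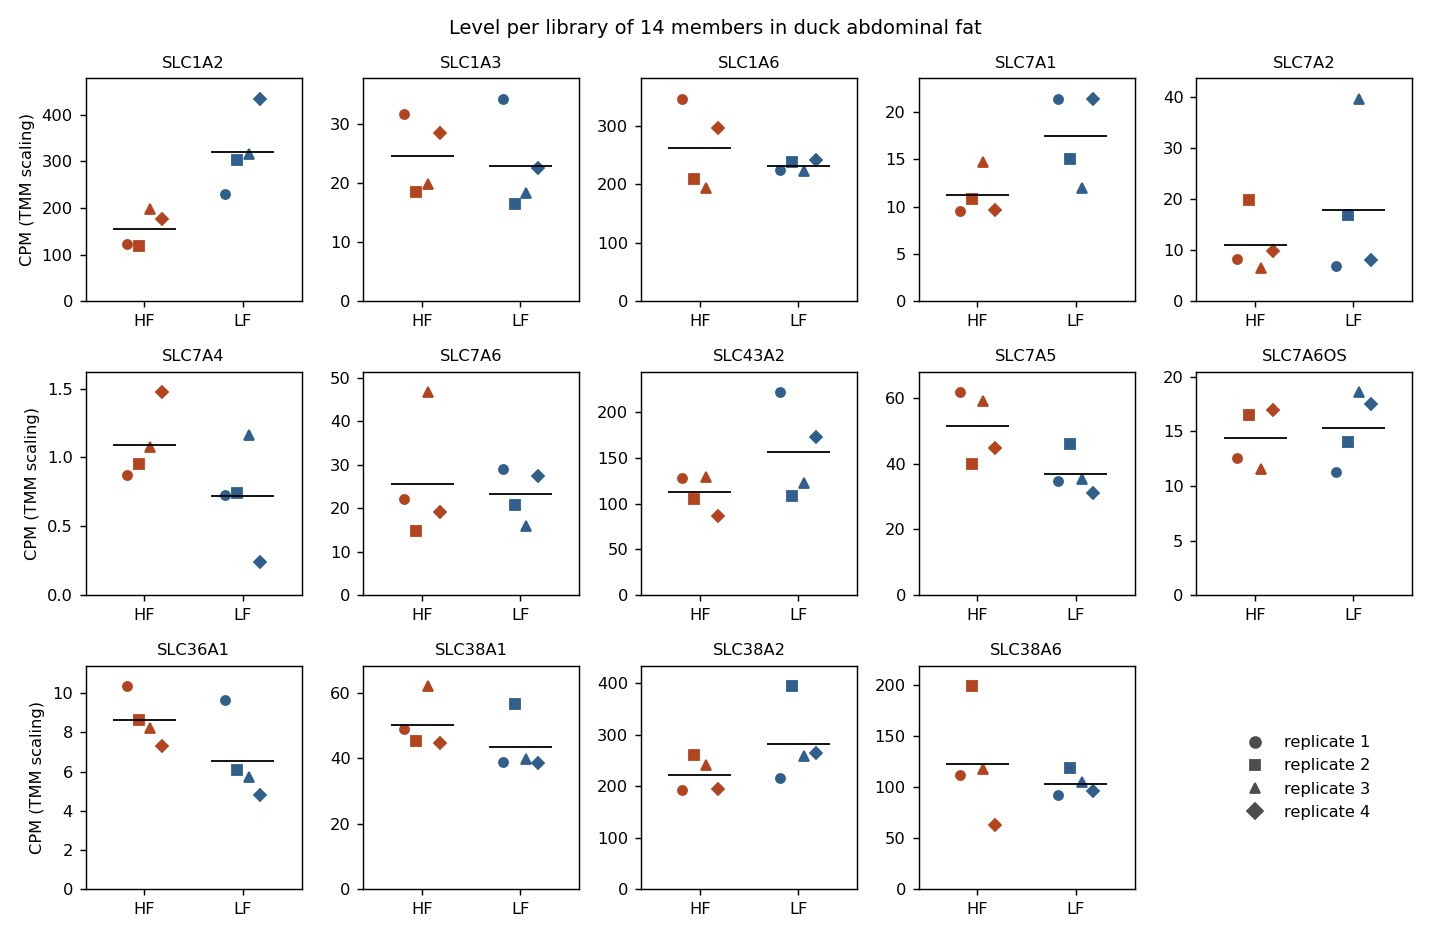
CPM in each library of the 14 members given in full (8 with the smallest p and 10 with the highest FPKM, with overlap between them), HF left and LF right; symbols mark the replicate number and lines the group mean, and each panel has its own axis from 0. SLC1A2 is the panel in which the groups do not overlap.

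For large neutral amino acids, the measured members leaned in opposite directions without passing the test. SLC7A5, the exchanger LAT1 that brings in leucine and other large neutral amino acids, had 61.7, 40.0, 59.0 and 44.9 CPM in HF and 34.8, 45.8, 35.3 and 31.1 CPM in LF. Only LF-2 lay within the HF range. The log2 fold change of SLC7A5 was 0.48 ± 0.18 (edgeR adjusted p = 0.253), and from 0.38 to 0.61 when 1 library was left out. SLC43A2 had 128, 106, 129.5 and 86.8 CPM in HF and 222, 109, 123 and 172 CPM in LF. LF-1 and LF-4 lay above all HF libraries and the other two within their range. SLC43A2 had a log2 fold change of -0.48 ± 0.23 (edgeR adjusted p = 0.372), -0.62 without LF-2 and -0.26 without LF-1. SLC43A1, in mammals the related carrier LAT3, had 45 counts in HF-1 and 0 in the other HF libraries, against 49, 0, 129 and 0 counts in LF. Its 1 row was described as LAT4, the product of SLC43A2, and was not tested. SLC7A8, the exchanger LAT2, had 2 to 8 counts in HF and 1 to 15 counts in LF. The heavy chain SLC3A2, the partner of LAT1, fits the rule for members but had no row under that symbol. The same held for SLC1A5 and SLC7A7.

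The cationic carriers, which bring in arginine and lysine, showed the second smallest p of all members in SLC7A1. SLC7A1, the widely used carrier CAT1, had 9.58, 10.8, 14.7 and 9.66 CPM in HF and 21.4, 15.0, 11.9 and 21.4 CPM in LF. HF-3 lay above LF-3, so the groups overlapped. Its log2 fold change was -0.64 ± 0.23 (edgeR adjusted p = 0.243), and from -0.80 to -0.52 when 1 library was left out. SLC7A2, the carrier CAT2 with known roles in liver, muscle and macrophages of mammals, had 8.21, 19.9, 6.51 and 9.85 CPM in HF and 6.84, 16.9, 39.7 and 8.14 CPM in LF. LF-3 stood alone at the top, and the rest of the libraries overlapped. The log2 fold change of SLC7A2 was -0.70 ± 0.56 (edgeR adjusted p = 0.604), -1.13 without HF-2, 0.048 without LF-3 and 0.44 with the covariate for W-described transcripts. LF-3 also had the highest sum of skeletal muscle markers, 188 CPM, against 10.2 to 75.5 CPM in HF and 5.51 to 20.7 CPM in the other LF libraries. The other libraries did not keep this order. HF-3, with the next highest sum at 75.5 CPM, had the lowest SLC7A2 of all libraries, 6.51 CPM. HF-2 had the lowest sum in HF, 10.2 CPM, and the next highest SLC7A2, 19.9 CPM. LF-3 was also the highest library for endothelial markers, 7990 CPM. The part of any of these markers in the level of SLC7A2 was not tested.

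SLC7A4, which belongs to the cationic branch by sequence, had 0.871, 0.950, 1.08 and 1.47 CPM in HF and 0.724, 0.740, 1.16 and 0.243 CPM in LF. It was low throughout, with LF-3 inside the HF range. SLC7A4 had a log2 fold change of 0.61 ± 0.47 (edgeR adjusted p = 0.587), 0.32 without LF-4 and 0.96 without LF-3. With the covariate, which sets HF against LF-4, the lowest library, it was 2.14 ± 0.69 (edgeR adjusted p = 0.151). SLC7A3, the carrier CAT3, had 5.19 ± 2.02 CPM in HF and 4.97 ± 1.59 CPM in LF. SLC7A14, a lysosomal member, had 1 count in HF-4 and 0 elsewhere.

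The exchangers of cationic for neutral amino acids gave no difference past the test. SLC7A6, called y+LAT2, had 22.0, 14.8, 46.6 and 19.1 CPM in HF and 29.0, 20.7, 16.0 and 27.5 CPM in LF. HF-3 was the highest library and HF-2 the lowest. Its log2 fold change was 0.14 ± 0.35 (edgeR adjusted p = 0.889), -0.32 without HF-3, 0.33 without HF-2 and -0.098 with the W covariate. HF-3 was also the highest for lymphocyte markers, 136 CPM, and for cell division markers, 169 CPM, against 90.2 to 104 CPM in the other HF and 78.5 to 103 CPM in the LF libraries. The other libraries did not keep this order. LF-1 and LF-4, next in SLC7A6 at 29.0 and 27.5 CPM, had lymphocyte sums of 48.25 and 46.7 CPM. Their cell division sums were 101 and 78.5 CPM, and LF-4 was the lowest library for both lists. HF-3 was also the lowest of all libraries for endothelial markers, 3269 CPM, and for erythroid markers, 189 CPM. The part of any of these markers in the level of SLC7A6 was not tested. SLC7A6OS, the gene named for lying on the opposite strand of SLC7A6, had 12.6, 16.5, 11.5 and 16.9 CPM in HF and 11.3, 14.1, 18.6 and 17.5 CPM in LF, with overlap. The log2 fold change of SLC7A6OS was -0.097 ± 0.21 (edgeR adjusted p = 0.873), reaching -0.22 when LF-1 was left out and 0.004 when LF-3 was. Without knowledge of strand, reads shared by this pair cannot be told apart. SLC3A1, the heavy chain rBAT, which in kidney and gut pairs with SLC7A9, had 7.42 ± 4.56 CPM in HF and 7.72 ± 1.33 CPM in LF, with HF-2 at 14.2 CPM. SLC7A9 itself, called b(0,+)AT, was at 0 in all 8 libraries, which allows up to 0.123 to 0.227 CPM per HF library and 0.0973 to 0.236 CPM per LF library (3 counts).

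SLC7A11, the xCT exchanger of cystine for glutamate that feeds glutathione synthesis, was scarce, at 0.752 ± 0.505 CPM in HF and 0.868 ± 0.343 CPM in LF (log2 fold change -0.24 ± 0.57). SLC7A13, a related exchanger of acidic amino acids and cystine, was at 0 in all libraries, with the same limits as SLC7A9. Among the proton-coupled and lysosomal carriers, SLC36A1, called PAT1, had 10.4, 8.62, 8.22 and 7.32 CPM in HF and 9.65, 6.09, 5.71 and 4.78 CPM in LF. LF-1 was the single LF library within the HF range. SLC36A1 had a log2 fold change of 0.40 ± 0.25 (edgeR adjusted p = 0.486), 0.28 without LF-4 and 0.64 without LF-1. SLC36A4, called PAT4, had 8.35 ± 1.98 CPM in HF and 8.56 ± 2.03 CPM in LF. SLC38A9, which senses arginine at the lysosome for the growth kinase mTORC1, had 10.01 ± 1.92 CPM in HF and 9.38 ± 1.19 CPM in LF (log2 fold change 0.093 ± 0.19). Of the 7 tested members not given in full, SLC1A4, SLC36A4, SLC38A3, SLC38A9, SLC3A1, SLC7A11 and SLC7A3, all but SLC1A4 changed sign in at least 1 alternative setting.

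**Figure D4:**
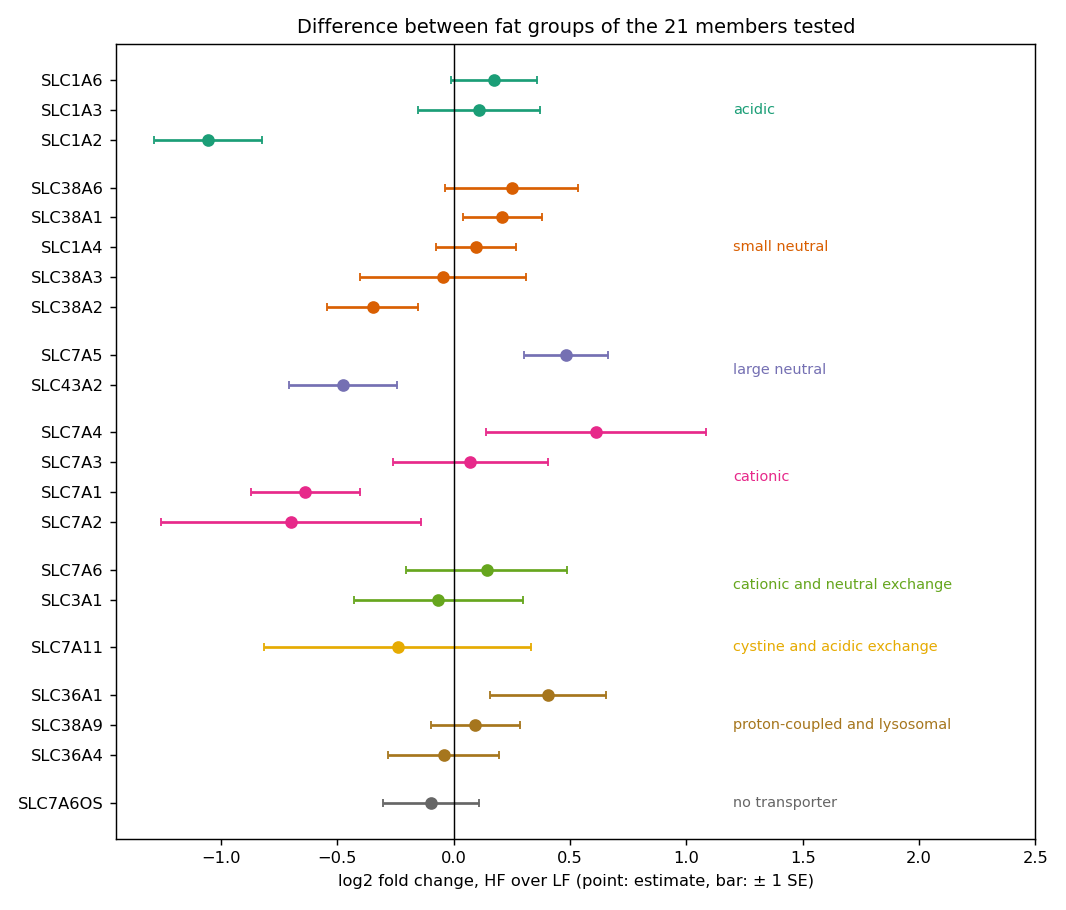
Log2 fold change (HF over LF) of the 21 members tested, grouped by substrate class, with bars of 1 SE on each side. SLC1A2 lies lowest at -1.06, and none of the 21 passed the test.

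Rows of the same symbol often traded places between libraries. For SLC36A1, a row had 10.4 CPM in HF-1 and 7.17 CPM in HF-4 and 0 in the other 6 libraries. A second row of SLC36A1 had 4.58 to 8.86 CPM in those 6 libraries and 0 in HF-1 and HF-4. For SLC7A6, a row had 10.8, 8.65, 25.7 and 10.2 CPM in HF and 0, 5.08, 4.13 and 2.33 CPM in LF (log2 fold change 2.25 ± 1.07). Another SLC7A6 row of the same description had 6.13, 2.70, 6.93 and 4.79 CPM in HF and 13.3, 7.99, 10.1 and 10.9 CPM in LF (log2 fold change -1.04 ± 0.35). Neither of these SLC7A6 rows passed (edgeR adjusted p = 0.735 and 0.535). A further SLC7A6 row of this description had a log2 fold change of 0.017 ± 1.31. In the sum of all SLC7A6 rows the groups overlapped. At the level of rows 49 of 97 were tested and 0 passed edgeR's test, against 0.0168% of all transcripts. At an unadjusted p under 0.05 stood 6 member rows (12.2%) and 7.42% of all transcripts. DESeq2 called 2 of 54 member rows (3.70%) and 2.45% of all. The other row it called, besides that of SLC1A2, was an SLC1A6 row at 7.09, 8.51, 6.70 and 13.1 CPM in HF and 3.73, 3.76, 4.91 and 2.62 CPM in LF (edgeR log2 fold change 1.24 ± 0.35, DESeq2 adjusted p = 0.0251).

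Together the members held 0.1209%, 0.1218%, 0.1239% and 0.1095% of the counts in HF and 0.1296%, 0.1413%, 0.1337% and 0.1397% in LF. All HF shares lay below all LF shares. Without SLC1A2 the shares were 0.0918% to 0.110% in HF and 0.0984% to 0.112% in LF, which overlap.

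Genes around these carriers were followed in 7 further lists, and calls fell in 2 of them. The lists were chosen with earlier results of these data known. The shares of all symbols beside them are therefore a description and no test of a list. Of 18 other amino acid carriers 7 were tested, with 1 higher and 1 lower in HF past the threshold, where 0.295% and 0.352% of all symbols were higher and lower. SLC6A6, the taurine carrier, fell to 261, 242, 229 and 191 CPM in HF, against 481, 522, 447 and 448 CPM in LF. Its groups lay far apart, with a log2 fold change of -1.04 ± 0.13 (edgeR adjusted p = 0.0160), and it passed in 5 of 8 fits that left out a library. SLC6A8, the creatine carrier, rose to 114, 92.6, 98.7 and 112.5 CPM in HF, against 67.8, 70.2, 54.4 and 54.9 CPM in LF (log2 fold change 0.76 ± 0.13, edgeR adjusted p = 0.0419), and passed in 2 of those fits. Neither taurine nor creatine is built into protein. Of 7 tested mitochondrial amino acid carriers none passed and 5 were positive. The closest was SLC25A29, which carries basic amino acids, with 37.4, 41.7, 66.7 and 47.7 CPM in HF and 15.9, 28.8, 21.8 and 19.0 CPM in LF (log2 fold change 1.18 ± 0.23, edgeR adjusted p = 0.0587). Its groups did not overlap. SLC25A13, an aspartate and glutamate carrier, had 0.33 ± 0.14.

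In the list of the response to amino acid shortage, 22 of 28 genes were tested, 10 were positive and 12 negative, and 1 fell, where 0.352% of all symbols were lower past the threshold. That gene was STC2, a secreted stanniocalcin, with 0.166, 0.146, 0.180 and 0.230 CPM in HF and 8.12, 5.01, 9.001 and 1.54 CPM in LF. Its log2 fold change was -4.97 ± 0.60 (edgeR adjusted p = 0.0137), past the threshold in 6 of 8 fits that left out a library. The HF levels lay near the counting limits of 0.123 to 0.227 CPM (3 counts), and HF-2 lay below its own. The size of the fold change therefore rests on few counts in HF. In LF the lowest library was LF-4, the one with W-described transcripts, and without it the log2 fold change was -5.29. SESN2, a leucine sensor that restrains mTORC1, had 3.44, 3.87, 5.61 and 3.91 CPM in HF and 1.77, 1.08, 1.30 and 0.729 CPM in LF (log2 fold change 1.81 ± 0.34, edgeR adjusted p = 0.0534). It did not overlap and did not pass. Of 27 tested genes of amino acid sensing by mTORC1 none passed and the median was -0.027, with BMT2 at -0.57 ± 0.35, or -0.27 without LF-2, and TSC2 at -0.27 ± 0.16, or -0.17 without LF-1. Branched-chain amino acid breakdown had 13 of 18 negative and none past the threshold, with a median of -0.078. Of all 10511 symbols tested, 5231 were negative. In this list AUH was at -0.73 ± 0.16 (edgeR adjusted p = 0.0829). BCAT1, the cytosolic transaminase, was at -0.57 ± 0.22, or -0.34 without LF-4. Genes of glutamine, glutamate and glutathione had 11 of 16 positive and none past the threshold, with a median of 0.15. Here GLUL, which makes glutamine from glutamate, was at 189 ± 31.1 CPM in HF and 315 ± 93.9 CPM in LF (log2 fold change -0.74 ± 0.21, edgeR adjusted p = 0.1495), and GLUD1, glutamate dehydrogenase, at 336 ± 45.1 CPM in HF and 257 ± 28.2 CPM in LF. In the list of arginine and polyamines 5 of 11 were positive, with a median of -0.14, and none passed. ARG2, an arginase, was at 2.68 ± 1.08 CPM in HF and 0.649 ± 0.347 CPM in LF. Its log2 fold change was 1.998 ± 0.50 (edgeR adjusted p = 0.106), or 1.70 without HF-3. In LF-1 ARG2 was at 0.161 CPM, below the counting limit of 0.236 CPM (3 counts). ODC1 had a log2 fold change of 0.98 ± 0.38, or 0.62 without HF-3. At an unadjusted p under 0.05 were 2 of 7 other carriers, 2 of 7 mitochondrial carriers, 5 of 22 genes of the shortage response, 0 of 27 of sensing by mTORC1, 3 of 18 of branched-chain breakdown, 5 of 16 of glutamine, glutamate and glutathione and 2 of 11 of arginine and polyamines, beside 15.0% of all symbols.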

How the data were processed

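The authors deposited, per the file headers, estimated counts and FPKM for each mRNA transcript in 8 libraries. Per the submitters' processing notes the tools include Bowtie2 2.2.8 and TopHat2 2.1.1, in roles not stated. For quantifier, genome build and strandedness the sources used here give nothing. The deposited log2 fold changes and p-values were not used, nor was the lncRNA table with its 16 columns of values per library. Counts were summed per symbol with letter case ignored and rounded; the 2137 rows without a symbol (0.839% to 0.965% of counts) stayed out of the sums. The test was edgeR 4.0.16 (R 4.3.3) with TMM scaling, filterByExpr (minimum count 10) and group as the only term, fitted on all symbols and again on transcripts. The SE is the absolute log2 fold change over the square root of F. On simulated counts the fit called 63 of 100 symbols with a log2 fold change of 1 in size, and 98 of 100 with 2. It called 12 of 10236 unchanged symbols. The changed symbols were drawn from those with higher counts. CPM were computed on TMM-scaled library sizes. Counting limits (3 counts) cover counting error only.

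The members and lists were chosen with earlier results of these data known. Given in full are the 8 members with the smallest p and the 10 with the highest mean FPKM; of each further list, genes past the threshold and the 2 with the smallest p. Alternatives were DESeq2 1.42.0, its size factors, upper-quartile scaling, limma 3.58.1 on log2(FPKM + 1) (for single genes also FPKM + 0.1) at a mean FPKM of at least 0.5, no filter, a replicate block, a covariate for W-described transcripts and leaving out each library. Regrouping rows by their descriptions was added after seeing the data. By symbol, 27 of 30 members were found in the reference gene table of a Pekin duck assembly. A search for motifs in promoters was planned and not run.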

Additional observations from a re-analysis of the deposited data

Results flagged for a closer look

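Within a group, a library stood apart from the other 3 by more than Dixon's 95% limit in 4 of 42 tests of members by group, where chance flags about 1 in 20 groups. SLC38A9 had 12.8 CPM in HF-3, against 8.62 to 9.29 CPM in the other HF libraries. SLC7A3 had 8.22 CPM in HF-3, against 3.98 to 4.33 CPM. SLC3A1 had 14.2 CPM in HF-2, against 4.79 to 5.64 CPM. SLC38A1 had 56.6 CPM in LF-2, against 38.6 to 39.95 CPM in the other LF libraries.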

How the results depend on the processing

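The count of members past the threshold was 0 in every edgeR setting and with limma on log2(FPKM + 1), and 1 with DESeq2; for transcripts it was 0 in every edgeR setting and 2 with DESeq2. Over all symbols the count was 68, and 606 with DESeq2, 128 with the covariate for W-described transcripts, 9 with the replicate block and 2 to 92 leaving out a library: 2 when HF-1 was left out, 14 for HF-3, 6 for HF-4, 30 for LF-1 and 19 for LF-3. Same-numbered libraries correlated with r from -0.215 to 0.028 in their deviations from the group means, so the numbers were not taken as pairs, and no HF library correlated best with the LF library of its number. The median over members was 0.072, 0.297 with the W covariate and -0.040 to 0.157 leaving out a library. Fold changes with the W covariate set HF against LF-4, the only LF library with W-described transcripts. Among members not given in full, the W covariate changed the sign to 0.862 for SLC38A3, 0.297 for SLC3A1 and 0.224 for SLC36A4. Among members given in full, sign changes with the W covariate gave 0.440 for SLC7A2 and -0.098 for SLC7A6. Leaving out a library gave -0.035 to 0.364 for SLC1A3, -0.080 to 0.468 for SLC38A6, -1.127 to 0.048 for SLC7A2, -0.315 to 0.331 for SLC7A6 and -0.218 to 0.004 for SLC7A6OS. Why single libraries differed in this way was not tested. The other 9 members given in full kept their sign in every alternative. The 9 members under the low-count filter did not enter the edgeR test as reported, and what this depth could detect for them was not measured.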

Other observations

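Among the 21 members tested, LF-4 had the lowest CPM for 8 and HF-4 for 5, and each of the other libraries for 0 to 2. The highest CPM fell in HF-3 and LF-1 for 4 members each and in each other library for 1 to 3.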
